A study of Homo sapiens with 80 samples.

Results

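The expression of 9 genes of the amnion and of surface epithelium was followed through the differentiation of human pluripotent stem cells to cardiomyocytes: GABRP, VTCN1, TFAP2A, TFAP2B, GATA3, KRT7, KRT8, KRT18 and KRT19. They are 9 of the 43388 genes in the deposited expression tables. GABRP and VTCN1 were selected on their expression values, since both rose late in the high purity WTC11 cells, so their levels there are a description and carry no test. The other 7 were named from knowledge of these tissues, to ask whether keratins, AP-2 factors and GATA3 went with that pair. They were named with earlier results of these data known, so their choice was not blind to the data.

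Cells received CHIR99021, an activator of WNT signalling, on day 0 at 6 to 12 µM depending on the line, and then 5 µM IWP2, which blocks WNT secretion. IWP2 was given on day 2 to WTC11, an induced pluripotent stem cell line, and on day 3 to IMR90-4, another induced line, and to H9, an embryonic line. Medium with insulin followed from day 6 or 7, and the purity class came from the share of cells with cardiac troponin T, by flow cytometry of day 16 cells. The multi-omic experiment held 56 poly(A) libraries of WTC11 from 8 days, every second day from 0 to 10 and then days 13 and 16: 25 wells of 1 high purity differentiation at passage 52 and 31 wells of 1 low purity differentiation at passage 69. The RNA-only experiment held 24 total RNA libraries, 1 at each of 4 stages (day 0, day 2 or 3, day 4 or 5, day 6 or 7) from a high and a low purity differentiation of each line. Its high purity passages were 58 for H9, 55 for IMR90-4 and 81 for WTC11, and its low purity passages were 55, 75 and 69. All groups, high and low, received the same agents. In the multi-omic experiment purity class, passage and differentiation cannot be told apart, and p-values measure the spread between wells of a single differentiation.

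The amnion is the thin epithelium that lines the fluid-filled sac around the embryo, and in primates it forms directly from pluripotent epiblast cells under BMP signalling. Surface ectoderm, the source of epidermis, is patterned by the same signal and shares with the amnion the AP-2 transcription factors, GATA3 and the keratins of simple epithelia. In the heart, mesodermal progenitors of the same culture give rise to cardiomyocytes and to the epicardium, a mesothelium that also carries simple keratins. Keratin filaments are built from pairs of a type I and a type II chain. KRT7 and KRT8 are type II chains, and KRT18 and KRT19 are type I chains.

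GABRP encodes the pi subunit of the GABA-A receptor and lies on chromosome 5 at 170782720 to 170814047 in GRCh38. VTCN1 encodes B7-H4, a membrane protein of the B7 family of T cell regulators, and lies on chromosome 1 at 117143587 to 117210927. TFAP2A on chromosome 6 (10396677 to 10419659) and TFAP2B on the same chromosome (50818355 to 50847619) encode AP-2 factors, which bind a GC-rich palindrome. The 250 bases before an annotated start of GABRP, VTCN1 and TFAP2A are printed, since these genes shared a time course in high purity wells. They were taken from RefSeq on GRCh38.p14, where 6 of the 9 members had an entry, and are written 5′ to 3′ on the strand of the gene with any match to the AP-2 palindrome GCCNNNGGC in capitals. Their positions are chr5:170783475-170783724 (plus strand), chr1:117210928-117211177 (minus strand) and chr6:10419660-10419909 (minus strand, the first of 2 entries for TFAP2A). The GABRP window lies inside the span given above for that gene, before an internal start. Those of VTCN1 and TFAP2A lie next to the spans of their genes.
GABRP: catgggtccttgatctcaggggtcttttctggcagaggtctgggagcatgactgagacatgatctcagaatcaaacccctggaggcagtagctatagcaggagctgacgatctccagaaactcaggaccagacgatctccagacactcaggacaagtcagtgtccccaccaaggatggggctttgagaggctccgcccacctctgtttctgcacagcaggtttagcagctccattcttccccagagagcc
VTCN1: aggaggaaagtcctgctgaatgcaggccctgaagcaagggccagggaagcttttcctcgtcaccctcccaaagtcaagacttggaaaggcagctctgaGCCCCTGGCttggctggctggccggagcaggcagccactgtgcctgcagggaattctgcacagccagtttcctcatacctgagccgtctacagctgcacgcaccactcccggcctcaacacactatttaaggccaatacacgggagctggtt
TFAP2A: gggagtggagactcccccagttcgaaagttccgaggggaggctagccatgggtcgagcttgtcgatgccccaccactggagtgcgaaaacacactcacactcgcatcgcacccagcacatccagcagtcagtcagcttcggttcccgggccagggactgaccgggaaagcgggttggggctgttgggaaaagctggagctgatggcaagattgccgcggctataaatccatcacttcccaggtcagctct

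The palindrome, which reads alike on both strands, occurred once, before VTCN1, and in neither of the other windows. Of all promoter windows of this length in the table, 19.8% held it. The GATA letters AGATAA or TGATAA, searched on both strands, occurred in none of the 3 windows and in 14.6% of all windows. A match or its absence in this stretch is a description of letters and not of binding.

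Depth ranged from 6579715 to 18143597 reads per library in the multi-omic experiment and from 17990882 to 40357968 in the RNA-only experiment. Levels are given as TPM, the share of transcripts in a library corrected for gene length. TNNT2, which encodes cardiac troponin T, averaged 3375 TPM ± 446 (SD, n = 3) in high purity wells on day 16 and 1073 ± 215 (n = 3) in low purity wells, in the order the labels give. Day 10 had only 1 high purity well and day 13 had 2, so day 10 is described without a test. Well 1 of the low purity class on day 13 was nearest in expression to a day 16 well of its class; leaving it out changed no count of members called by over 1.5 times. These are bulk samples, in which fewer cells of a type and less RNA per cell cannot be told apart.

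GABRP was low in high purity wells through day 6 and then rose. It held 1.41 to 2.63 TPM on day 0, 1.97 to 2.62 on day 2 and 0.212 to 1.45 on day 6. Its TPM were 11, 5.31 and 4.15 in the 3 wells of day 8 and 31.6 in the single well of day 10. On day 13 the wells read 37.3 and 52.6, and on day 16 they fell back to 8.37, 10.6 and 7.75. No high purity well of day 16 reached the level of either day 13 well. Low purity wells stayed at or under 1.33 TPM on all 4 of these days, with no overlap between classes from day 8 on. On day 16 the 3 high purity wells held 129 to 154 reads of GABRP and the 3 low purity wells 1 to 20.

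VTCN1 followed the same course at a lower level. The high purity wells read 7.34, 3.15 and 2.61 TPM on day 8, 20.1 on day 10, 23.8 and 28.2 on day 13, and 4.79, 5.59 and 5.25 on day 16. The same well of day 8 was highest for both genes. Low purity wells held at most 1.04 TPM of VTCN1 on any of these days. Group means of GABRP and VTCN1 had fallen 5.04 and 4.99 times between day 13 and day 16, whereas TNNT2 was higher on day 16 than on day 13.

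**Figure D1:**
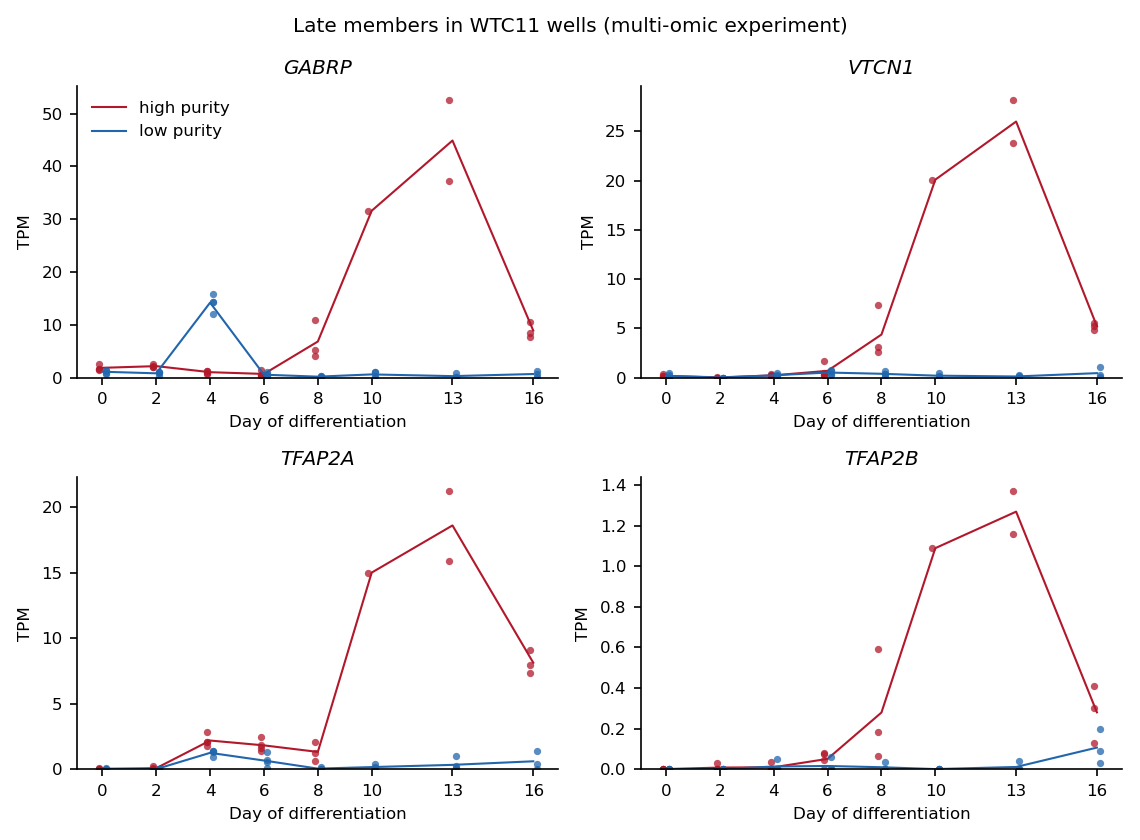
TPM of GABRP, VTCN1, TFAP2A and TFAP2B against day of differentiation in the multi-omic experiment, with a point per well and a line through the group means (red, high purity; blue, low purity; linear axes from 0). The high purity means of all 4 genes are highest on day 13, and GABRP has a separate low purity peak of 12.1 to 15.9 TPM on day 4.

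GABRP also had an early peak in the other class, which VTCN1 lacked. On day 4 the 4 low purity wells read 15.9, 14.4, 12.1 and 14.3 TPM of GABRP, against 0.698 to 1.25 in the 4 high purity wells. By day 6 the low purity wells held 0.114 to 0.986 TPM, overlapping the high purity wells. VTCN1 on day 4 held 0.0943 to 0.430 TPM in low purity wells and 0.136 to 0.405 in high purity wells. The early GABRP peak therefore came without VTCN1, in all 4 wells. KRT7 was also higher in the low purity wells of that day, at 1.74 to 3.10 TPM against 0.0679 to 0.256. TNNT2 stood at 457 to 524 TPM in the low purity wells of day 4 and at 10.3 to 20.8 in the high purity wells. The part of that difference in the GABRP values was not tested.

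TFAP2A went with the late pair. This AP-2 factor acts in surface ectoderm, neural crest and amnion. High purity wells read 2.06, 0.639 and 1.22 TPM on day 8, 15.0 on day 10, 15.9 and 21.2 on day 13, and 7.31, 7.93 and 9.11 on day 16. Low purity wells read 0.140 TPM in 1 well and 0 in the other 3 on day 8, at most 0.966 on day 13, and 0, 1.39 and 0.396 on day 16. The classes did not overlap on any day from day 4 on. TFAP2A was higher in the high purity class by 1.17 on the log2 scale on day 8 (SE 0.21, adjusted p = 8.78e-06), by 4.07 on day 13 (SE 0.24, adjusted p = 1.45e-18) and by 2.86 on day 16 (SE 0.22, adjusted p = 1.09e-14), by limma. These are differences in log2(TPM + 1) after scaling, which understate the change of low genes. TFAP2A overlaps the antisense genes TFAP2A-AS1 and TFAP2A-AS2, which averaged 1.98 and 3.95 TPM in the high purity wells of day 13. Without well 1 of day 8 the day 8 difference was 0.97 and no longer met the fold threshold.

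A call here means a Benjamini-Hochberg adjusted p under 0.05 over the 25664 genes tested and a change of at least 1 on the log2 scale. The late rise of TFAP2A from day 8 to day 16 was 2.25 in the high purity class (SE 0.22, adjusted p = 1.68e-11, limma) and 0.56 in the low purity class (adjusted p = 0.0327), which was not called. The difference between these changes was 1.69 (SE 0.31, adjusted p = 2.87e-05, limma), against 9.17% of all genes called for it. It rested on the scale: it was 1.07 with a pseudocount of 0.1 (adjusted p = 0.447) and -1.30 in edgeR on the recovered reads, where the low purity class started from 2 reads in 4 wells and its own rise was 4.18 and called (adjusted p = 0.00102).

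TFAP2B, the paralogue of TFAP2A, had a like course near the limit of detection. It held 1.09 TPM (23 reads) in the high purity well of day 10, and 1.37 and 1.16 TPM (31 and 26 reads) in those of day 13. Those 3 libraries were the only ones to reach 1 TPM, so it passed the filter on low values only through the group where it was high. The low purity wells of day 10 held 0 reads, and those of day 13 held 1 read in all. On day 16 the high purity wells read 0.128, 0.412 and 0.299 TPM and the low purity wells 0.0289, 0.197 and 0.0906, which overlap. Its difference between the classes is therefore given with no test, as 0.34, 1.24 and 0.26 on days 8, 13 and 16. The day 8 value rested on the scale and was 1.62 with a pseudocount of 0.1 and 4.33 in edgeR on the recovered reads. Without well 2 of the high purity class on day 13 the gene did not pass the filter.

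GATA3, a zinc finger factor of trophoblast, amnion and ectoderm, had another time course. It was near 0 on days 0 and 2 and reached its highest level on day 4 in both classes, at 102 TPM ± 12.5 (SD, n = 4) in high purity wells and 50.5 ± 4.24 (n = 4) in low purity wells. The change from day 0 to day 4 was 6.46 in the high purity class (SE 0.13, adjusted p = 3.74e-37) and 5.56 in the low purity class (SE 0.13, adjusted p = 8.10e-35, limma). Its group mean was lower on each later day, while GABRP, VTCN1 and TFAP2A rose to their day 13 level. The day 16 minus day 8 change was -1.51 in the high purity class (SE 0.15, adjusted p = 8.48e-12) and -1.00 in the low purity class (SE 0.14, adjusted p = 7.61e-08, limma). The low purity change sat at the fold threshold and was -0.92 without well 1 of day 16.

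GATA3 nevertheless stayed higher in the high purity wells on each day from day 4 to day 16. On day 16 these wells read 4.00, 5.36 and 4.53 TPM and the low purity wells 1.30, 1.54 and 1.85. The difference was 1.01 on day 4 (SE 0.13, adjusted p = 8.48e-09), 1.87 on day 6 (SE 0.13, adjusted p = 2.21e-16), 1.85 on day 8 (SE 0.14, adjusted p = 2.88e-15), 1.98 on day 13 (SE 0.15, adjusted p = 2.27e-14) and 1.34 on day 16 (SE 0.15, adjusted p = 1.79e-10, limma). The day 4 difference was near the threshold and was lost without high purity well 1 or 2 or low purity well 1, where it was 0.94 to 0.96. GATA3 overlaps its antisense gene GATA3-AS1, which held 15.0 TPM in high purity wells and 6.22 in low purity wells on day 4. Whether the counting used strand is not given in the sources used here, so reads of a gene and its antisense partner may be mixed.

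The keratins did not move as a group. KRT8, the main type II chain of simple epithelia, and its partner KRT18 rose in both classes by day 4 and then declined, more so in the high purity class. KRT8 went from 464 TPM on day 0 to 5528 ± 437 on day 4 (SD, n = 4) and 1105 ± 163 on day 16 (n = 3) in high purity wells. In low purity wells it went from 383 to 7883 ± 274 (n = 4) and to 3439 ± 170 (n = 3). The single day 16 values were 985, 1290.5 and 1040.2 TPM against 3616, 3423 and 3277, with no overlap. The KRT8 difference was -1.43 on day 16 (SE 0.097, adjusted p = 1.32e-16, limma) and -0.97 on day 13, short of the fold threshold.

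KRT18 read 274, 314 and 273 TPM in high purity wells on day 16, against 1184, 1180.2 and 1146 in low purity wells. Its difference was -1.27 on day 8 (SE 0.093, adjusted p = 2.18e-15), -1.06 on day 13 (SE 0.11, adjusted p = 2.29e-11) and -1.81 on day 16 (SE 0.099, adjusted p = 1.07e-19, limma). Without well 2 of the high purity class on day 13 that day's difference was -0.93 and not called. KRT8 and KRT18 lie side by side on chromosome 12 (52897191 to 52949860 and 52948855 to 52952906), and their RefSeq spans share 1006 bases. The pseudogene of the pair with the most reads in these tables, KRT8P41, averaged at most 0.732 TPM in any group from day 4 on.

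KRT19, a type I chain of simple and ductal epithelia, went the other way. High purity wells of day 16 held 794, 976 and 758 TPM and low purity wells 472, 552 and 525. Its difference was 1.73 on day 2 (SE 0.093, adjusted p = 4.59e-19, limma), when the wells read 706 to 1012 and 239 to 296 TPM. Later it was smaller, at 0.98 on day 8, 0.59 on day 13 and 0.92 on day 16 (adjusted p = 1.04e-09, limma), each under the fold threshold. From day 4 to day 16 no low purity well reached the lowest high purity well of its day.

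The ratio of the 2 type I chains differed between the classes, and their order did so on day 4 and from day 8 on. Within a library, the ratio of KRT19 to KRT18 in TPM was 2.78 to 3.11 in high purity wells on day 16 and 0.399 to 0.468 in low purity wells. On day 4 it was 1.71 to 1.80 against 0.689 to 0.786, and on day 0 it was 0.631 to 0.704 against 0.538 to 0.619. The classes did not overlap in this ratio on any of the 8 days, the day 0 wells being the closest. The ratio does not depend on how libraries are scaled to each other. With 3 wells against 3 an exact permutation test cannot reach p under 0.05, and none was run on it.

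KRT7, the type II chain of amnion, trophoblast and ductal epithelia, was low throughout and came nearest to the late genes on days 10 and 13. It read 5.35 TPM in the high purity well of day 10 and 5.64 and 6.40 in those of day 13, against 1.02 to 1.92 and 1.49 to 2.83 in low purity wells. The day 13 difference was 1.41 (SE 0.27, adjusted p = 4.57e-05, limma). It did not last: on day 16 the wells read 2.80, 3.53 and 2.99 TPM against 0.749, 3.64 and 3.42, which overlap (0.49, adjusted p = 0.124, limma). KRT7 had stood near that level in the undifferentiated cells, at 5.20 TPM ± 0.863 (SD, n = 4) in high purity wells on day 0, where GABRP was at 1.85 ± 0.537. In the high purity class it dropped by 2.55 on the log2 scale between day 0 and day 4 (adjusted p = 1.41e-13, limma) and by day 6 it stood at 2.72 to 5.79 TPM, before GABRP or VTCN1 had risen. KRT7 overlaps KRT7-AS and 2 pseudogene entries, TMT1AP1 and KRT87P; KRT7-AS averaged 0.895 TPM in the high purity wells of day 13.

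**Figure D2:**
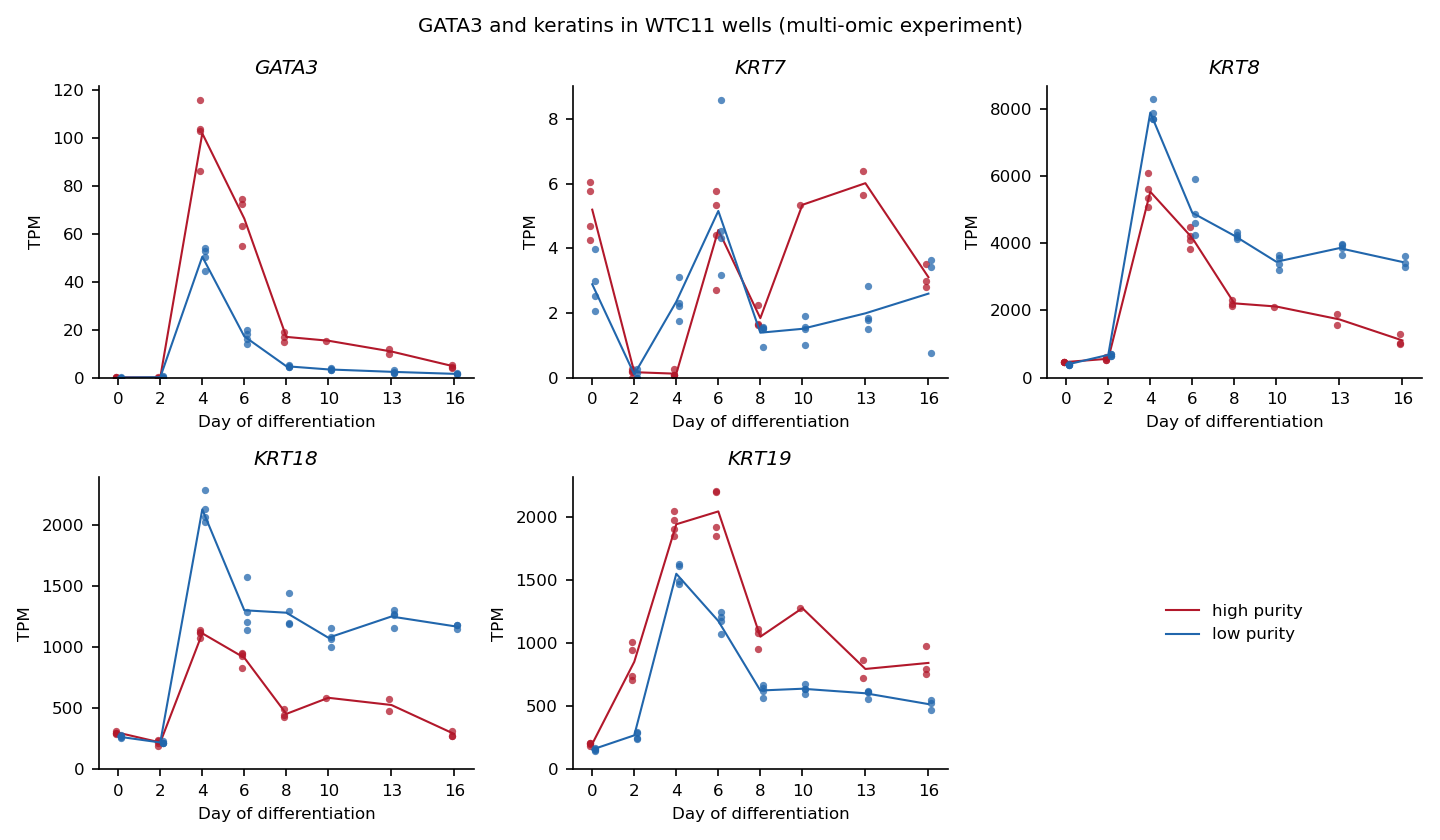
TPM of GATA3, KRT7, KRT8, KRT18 and KRT19 against day of differentiation in the multi-omic experiment, with a point per well and a line through the group means (red, high purity; blue, low purity; linear axes from 0). GATA3, KRT8 and KRT18 peak on day 4 in both classes and KRT19 on day 4 or 6, and KRT8 and KRT18 end lower in the high purity class while KRT19 ends higher.

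Counted over the 6 members other than GABRP, VTCN1 and TFAP2B, none was called between the classes on day 0 by limma, against 1.07% of all genes. At an unadjusted p under 0.05 there were 3, KRT7, KRT8 and KRT19, against 6591 of the 25664 genes tested. Each was higher in the high purity class by less than the fold threshold. KRT7 and KRT19 also had an adjusted p under 0.05 (0.042 and 0.0218, limma), and edgeR on the recovered reads called 0. On day 2 KRT19 alone was called (background 5.32%), on day 4 GATA3 higher and KRT7 lower (7.84%), and on day 6 GATA3 alone (8.80%). On day 8 TFAP2A and GATA3 were higher and KRT18 lower (12.2%). Day 13 had TFAP2A, GATA3 and KRT7 higher and KRT18 lower (10.8%). Day 16 had TFAP2A and GATA3 higher and KRT8 and KRT18 lower (13.4%). The median difference of the 6 was 0.69 on day 8, 1.00 on day 13 and 0.71 on day 16, against -0.025, -0.00145 and 0 over all genes tested. Of all calls, 38.3%, 42.2% and 43% were in the higher direction on these days, and 25.3%, 30.6% and 28.1% without the scaling between libraries; no member called on them changed direction.

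**Figure D3:**
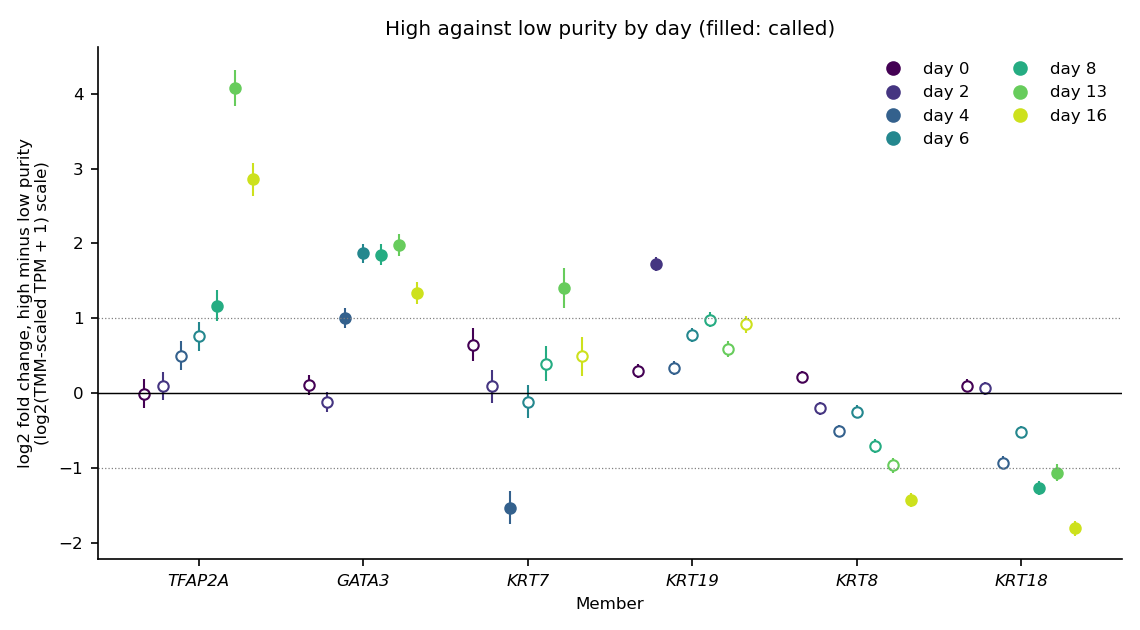
Difference between high and low purity wells on the log2(TPM + 1) scale for the 6 tested members by day, with bars of 1 standard error from limma, filled points for calls and dotted lines at the fold threshold. TFAP2A stands highest on day 13, GATA3 is above the line from day 4 on, and KRT8 and KRT18 lie under 0 late while KRT19 lies above it.

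Within the high purity class, 6 of the 6 were called between day 0 and day 4 (18.5% of all genes), 4 between day 4 and day 8 (14.0%) and 2 between day 8 and day 16 (11.4%). The first step took GATA3, KRT8, KRT18, KRT19 and TFAP2A up and KRT7 down. TFAP2A rose by 1.60 (SE 0.19, adjusted p = 1.19e-09, limma), to 2.18 TPM ± 0.471 (SD, n = 4), so that it had a small early peak before its late one. In the low purity class the counts were 5 (22.2%), 3 (11.3%) and 1 (6.39%). There the early TFAP2A level, 1.24 TPM on day 4, fell by 1.07 on the log2 scale by day 8 (adjusted p = 8.52e-06, limma).

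Well-to-well values of the late genes agreed in some groups and not in others. In the low purity class on day 16, well 2 held the most GABRP, VTCN1, TFAP2A, TFAP2B and KRT7 (1.33, 1.04, 1.39, 0.197 and 3.64 TPM) and well 1 the least (0.0583, 0.0538, 0, 0.0289 and 0.749 TPM). Well 2 of the same class was also the highest on day 13 for all 5 genes. On day 10 of that class GABRP, TFAP2A and KRT7 were highest in well 2, but VTCN1 was highest in well 3 and lowest in well 2, at 0.459 and 0.0800 TPM. In the high purity class on day 8, well 1 led GABRP, VTCN1, TFAP2A and TFAP2B but not KRT7. On day 6 of that class VTCN1 was highest in well 1, at 1.70 TPM, where GABRP was lowest, at 0.212 TPM. On day 16 of that class well 2 led GABRP, VTCN1, TFAP2B and KRT7, and well 3 led TFAP2A. These orders within groups are descriptions with no test.

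Over the 16 group means, the 5 genes most like GABRP among 16950 candidates (Pearson r of log2(TPM + 1), highest group mean at least 5 TPM) were CA3, a muscle carbonic anhydrase (0.88), VTCN1 (0.87), TFAP2A (0.85), SPNS2, a sphingosine phosphate transporter (0.85), and ACTN3, an alpha-actinin of muscle (0.84). CA3 shared both peaks of GABRP, with 20.9 TPM in low purity wells against 2.55 in high purity wells on day 4, and 56.9 against 3.74 on day 13. Among the 5 genes most like VTCN1 were WNT6, a WNT ligand of surface ectoderm and amnion (0.97), HSPB2, a small heat shock protein of muscle (0.94), ITGB6, an epithelial integrin (0.94), and REEP6 (0.93). WNT6 and ITGB6 reached 5.22 and 6.52 TPM in high purity wells on day 13 and held 0.124 and 0.428 in low purity wells. TFAP2A ranked at 6 for VTCN1 with r = 0.93, and TFAP2B, too low to be a candidate, had r = 0.97 with VTCN1 and 0.86 with GABRP. KRT7 ranked at 1238 for GABRP (r = 0.49), and GATA3, KRT19, KRT8 and KRT18 ranked lower, with r of 0.30, 0.36, -0.016 and -0.10. By Spearman rho 1 of the 5 genes remained for GABRP and 0 for VTCN1, so this order, the place of the members included, rests on the measure. These r values describe group means that share libraries and have no p. GABRP and VTCN1 were both selected for a late rise in these high purity wells, so their likeness to each other follows in part from that choice.

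Other genes of the same tissues divided along similar lines. Of 19 tested genes of epithelial junctions and their regulators, 15 were higher in the high purity class on day 8, 16 on day 13 and 7 on day 16, with 0 lower on any of these days (higher calls over all genes were 4.66%, 4.55% and 5.76%). Their median was 1.62, 1.76 and 0.89. Those changed most on day 16 were the tight junction claudins CLDN4 (1.84) and CLDN3 (1.79), the epithelial regulators GRHL2 (1.61) and OVOL1 (1.11), the adhesion protein EPCAM (1.26) and PKP3, a desmosomal plaque protein (1.07). Their summed level was 968 to 1076 TPM in high purity wells on day 13 and 659 to 736 in low purity wells. Of the 19, 8 had their highest late mean in the high purity class on day 8 and 8 on day 10. GRHL2, at 6.81 TPM on day 8 and 10.8 on day 13, was among the 3 that stood highest on day 13 with GABRP and VTCN1. Genes of endoderm, another epithelial tissue, were higher as well: 8 of 13 tested on day 8 and 1 lower, 7 and 0 on day 13, and 3 and 2 on day 16, with a median of 2.04, 1.08 and -0.24. Their summed level was 1215 to 2161 TPM in high purity wells on day 8 and 328 to 541 in low purity wells, but 957 to 963 and 692 to 1561 on day 13, and 129 to 585 and 518 to 1351 on day 16, where the classes overlap. On day 16 EPCAM, which stands in both lists, FOXA2 (1.20) and SOX17 (1.07), a pair of endoderm transcription factors, were higher, and AFP (-1.84), a secreted protein of yolk sac and liver, was lower. FOXA2 averaged 48.4, 55.8 and 11.7 TPM in high purity wells on days 8, 10 and 13, so that it was past its highest level when GABRP and VTCN1 reached theirs. The part of junction or endoderm genes in the values of the members was not tested.

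The amnion list, which leaves out the 9 members, was divided. Of its 21 tested genes 3 were higher and 9 lower in the high purity class on day 16, with 6 and 7 on day 13 and 2 and 9 on day 8, and a median of -0.52 on day 16. Lower calls over all genes were 7.50%, 6.23% and 7.65% on days 8, 13 and 16. The largest day 16 differences were those of TNC (-4.63), POSTN (-3.35), IGFBP3 (-3.31), BMP4 (-2.97) and ANXA1 (-2.35), all lower, and HEY1 (2.17), a NOTCH target, higher. TNC and POSTN encode matrix proteins, BMP4 a ligand, IGFBP3 a growth factor binding protein and ANXA1 a phospholipid binding protein; all of them are also made by mesodermal tissues. The rise of GABRP, VTCN1 and TFAP2A was thus not shared by the list as a whole. Whether any cells in these bulk samples were amnion was not tested.

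Of 15 tested surface ectoderm genes 5 were higher and 1 lower on day 16, with GRHL2 and OVOL1 among the higher and EYA2 (-1.11) lower. On day 13 the counts were 6 and 0, and on day 8 3 and 1. The markers of stratified epidermis in that list, TP63, KRT5 and KRT14, named after their values were seen, averaged at most 0.398 TPM in each class on days 8 to 16. Of 14 tested trophoblast genes 3 were higher on day 16, GATA2 (1.24), XAGE2 (1.02) and PGF (1.02), and 0 lower. HLA-G and CGB5 of that list were listed at 0 in every well of days 8 to 16. The 4 lists held 72 genes, of which 8 stood in more than 1 list.

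No tested relative of GABRP or VTCN1 was called higher in the high purity class on day 16. Of 11 other GABA-A receptor subunits tested, 0 were higher and 4 lower in the high purity class on day 16, among them GABRA2 (-3.23), GABRB2 (-2.91) and GABRB1 (-1.88). Of 5 other B7 family genes tested, VSIR was lower (-3.25) and none higher. None of 14 other type II keratins passed the filter on low values, and none of 5 other type I keratins tested was called on day 16. Of 2 other AP-2 family genes tested, 0 were called on day 16. TFAP2C, named after its values were seen, averaged 2.5 TPM in high purity wells on day 13 and 0 in low purity wells. TFAP2E was lower in the high purity class on days 8 and 13 (-0.88 and -0.34, neither called) and at 0.12 on day 16. The summed level of this list on day 13 was 5.52 to 6.69 TPM in high and 4.21 to 7.76 in low purity wells, which overlap. Of 5 AP-2 partners CITED4, a coactivator, was higher on day 16 (1.61). Of 8 tested genes in the GATA family list, 1 was higher on days 8, 13 and 16, GATA2, a relative of GATA3 (1.58, 1.72 and 1.24). On days 8, 13 and 16, 2, 2 and 0 of the list were lower. The lower ones were GATA4 and ZFPM2 on day 8, and ZFPM1 and ZFPM2 on day 13.

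KRT8, KRT18, the mesothelial genes and the genes of fibroblasts and stroma were low in the same class. Of 14 genes of mesothelium and epicardium, 11 were lower in the high purity class on day 16 and 0 higher (9 and 0 on day 13, 8 and 1 on day 8), led by WT1 (-5.16), ALDH1A2 (-4.10), BNC1 (-4.09) and BNC2 (-3.94). The summed level of the list was 66.2 to 73.4 TPM in high purity wells on day 16 and 605 to 821 in low purity wells. Of 9 genes of fibroblasts and stroma, 8 were lower on day 16 and 0 higher (7 and 0 on days 8 and 13), with a median of -3.11. The matrix proteoglycans DCN (-6.00) and LUM (-4.85) were among them, as was POSTN of the amnion list. Their summed level was 586 to 708 TPM in high purity wells on day 16 and 9745 to 13235 in low purity wells. The part of either list in the lower KRT8 and KRT18, or of the stromal genes in the lower genes of the amnion list, was not tested. Neural crest genes, another site of AP-2 activity, were mixed on day 16, with 3 of 10 higher and 2 lower: PAX3 (1.29) and ERBB3 (1.24) were the higher ones changed most, and ETS1 (-2.73) and SNAI2 (-2.51) were lower.

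**Figure D4:**
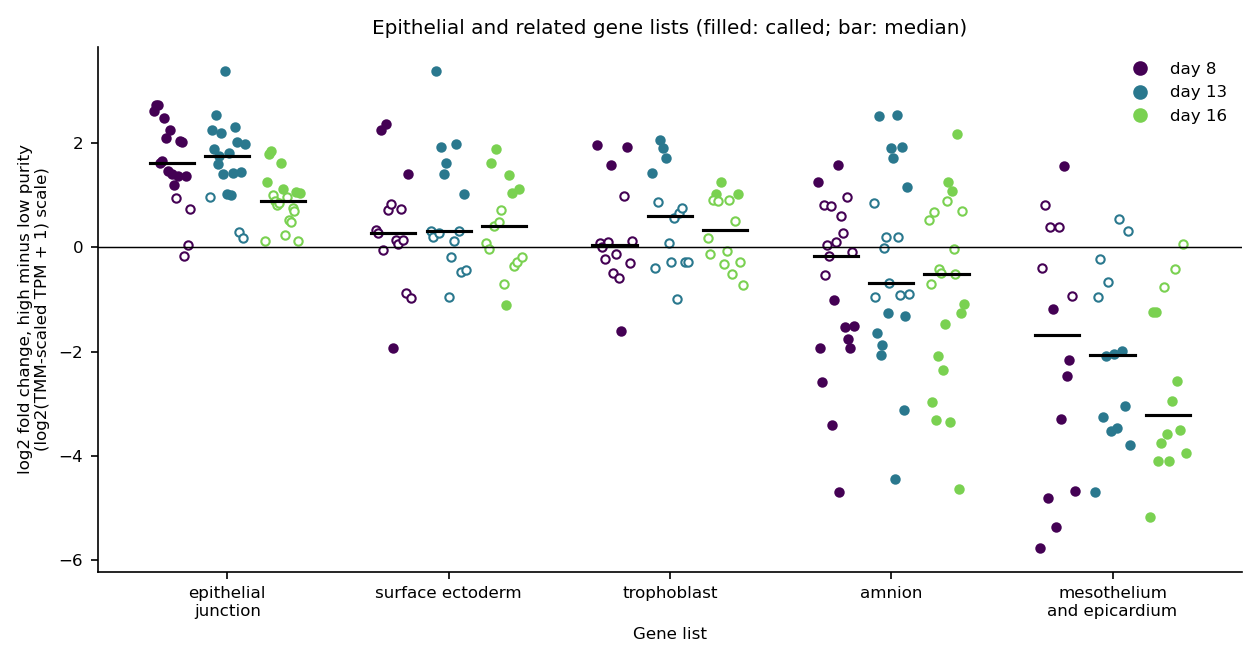
Difference between high and low purity wells on the log2(TPM + 1) scale for each tested gene of 5 lists on days 8, 13 and 16, with filled points for calls and a bar at the median. Epithelial junction genes lie above 0, genes of mesothelium and epicardium mostly below, and the amnion list spreads to both sides.

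The RNA-only experiment ends on day 6 or 7, before the late rise, and so covers only the early part of these courses. Its total RNA libraries were normalised apart from the poly(A) libraries, and levels are compared within it. Between high and low purity differentiations no member was called at any of the 4 stages, where 0 of 24810 genes were called by edgeR's quasi-likelihood test (0%). At an unadjusted p under 0.05 there were 362, 1921, 1828 and 2916 genes at stages 1 to 4, among them 0, 2, 1 and 0 of the 8 members tested; TFAP2B was too low to test. The 2 at stage 2 were GATA3 (-1.36, adjusted p = 0.581 by edgeR) and KRT7 (-2.22, adjusted p = 0.624 by edgeR), and the 1 at stage 3 was KRT7 (-3.00, adjusted p = 0.54 by edgeR). At stage 3 KRT7 read 0.0683 TPM in the high and 1.94 in the low purity H9 cells, 0.0161 and 0.378 in WTC11, and 0.0924 and 0.0609 in IMR90-4, so that 2 of 3 lines had less in the high purity class. DESeq2 called 0, 77, 56 and 202 genes at the 4 stages, of the members only KRT7 at stage 3 (-3.09, adjusted p = 0.0399).

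GABRP in these 6 differentiations was highest in undifferentiated cells, at 1.28 to 4.23 TPM, and lower at day 6 or 7, at 0.531 to 1.56 TPM. The change from stage 1 to stage 4 was -1.69 (adjusted p = 0.0499, edgeR), at the edge of the threshold and lost when any 1 line was left out. A single library stood out between: low purity H9 on day 3 held 7.67 TPM (469 reads), against 0.0756 to 0.823 in the other 5 libraries of that stage. Low purity WTC11 on day 4, of the same passage number as the multi-omic low purity cells, held 0.367 TPM of GABRP (42 reads), so the early peak seen there did not appear in this library. VTCN1 stayed at or under 0.273 TPM in all 24 libraries.

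TFAP2A was almost absent on day 0, with 2 reads in 1 library and 0 in the other 5, and held 2 to 173 reads at stage 4. Its highest level was 1.52 TPM in low purity WTC11 on day 6, against 0.320 in high purity WTC11. This is the opposite order to the multi-omic WTC11 wells, both on later days and on day 6 itself. On day 6 those wells held 1.36 to 2.44 TPM in the high and 0.0872 to 1.34 in the low purity class. GATA3 rose from 0 to 4 reads at stage 1 to between 84 and 374 reads at stage 4, with 1.52 to 5.08 TPM, and its highest stage was stage 3 in 4 of the 6 differentiations. KRT8, KRT18 and KRT19 rose from stage 1 to stage 4 by 2.64 (adjusted p = 2.67e-08), 1.51 (adjusted p = 1.64e-07) and 2.63 (adjusted p = 3.88e-07), by edgeR. In all, 6 of the 8 tested members were called between these stages, and 39.5% of all genes were. KRT8 stood at 273 to 342 TPM at stage 1 and at 1582 to 2384 at stage 4.

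KRT19 did not order the classes alike in the 3 lines. At stage 3 it was 1201 TPM in the high and 369 in the low purity H9 cells, 680 and 541 in WTC11, and 1021 and 1298 in IMR90-4. The ratio of KRT19 to KRT18 at that stage was higher in the high purity class in 3 of 3 lines, at 2.09 against 0.635 in H9, 1.92 against 1.88 in IMR90-4 and 1.15 against 1.11 in WTC11. At stage 4 it was higher in 2 of 3 lines, at 0.757 against 0.356 in H9 and 0.977 against 0.692 in IMR90-4, while WTC11 read 0.785 against 0.805. At stages 1 and 2 it was higher in 1 and 2 of the 3 lines. With 3 lines no exact paired test can reach p under 0.05, and none was run.

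**Figure D5:**
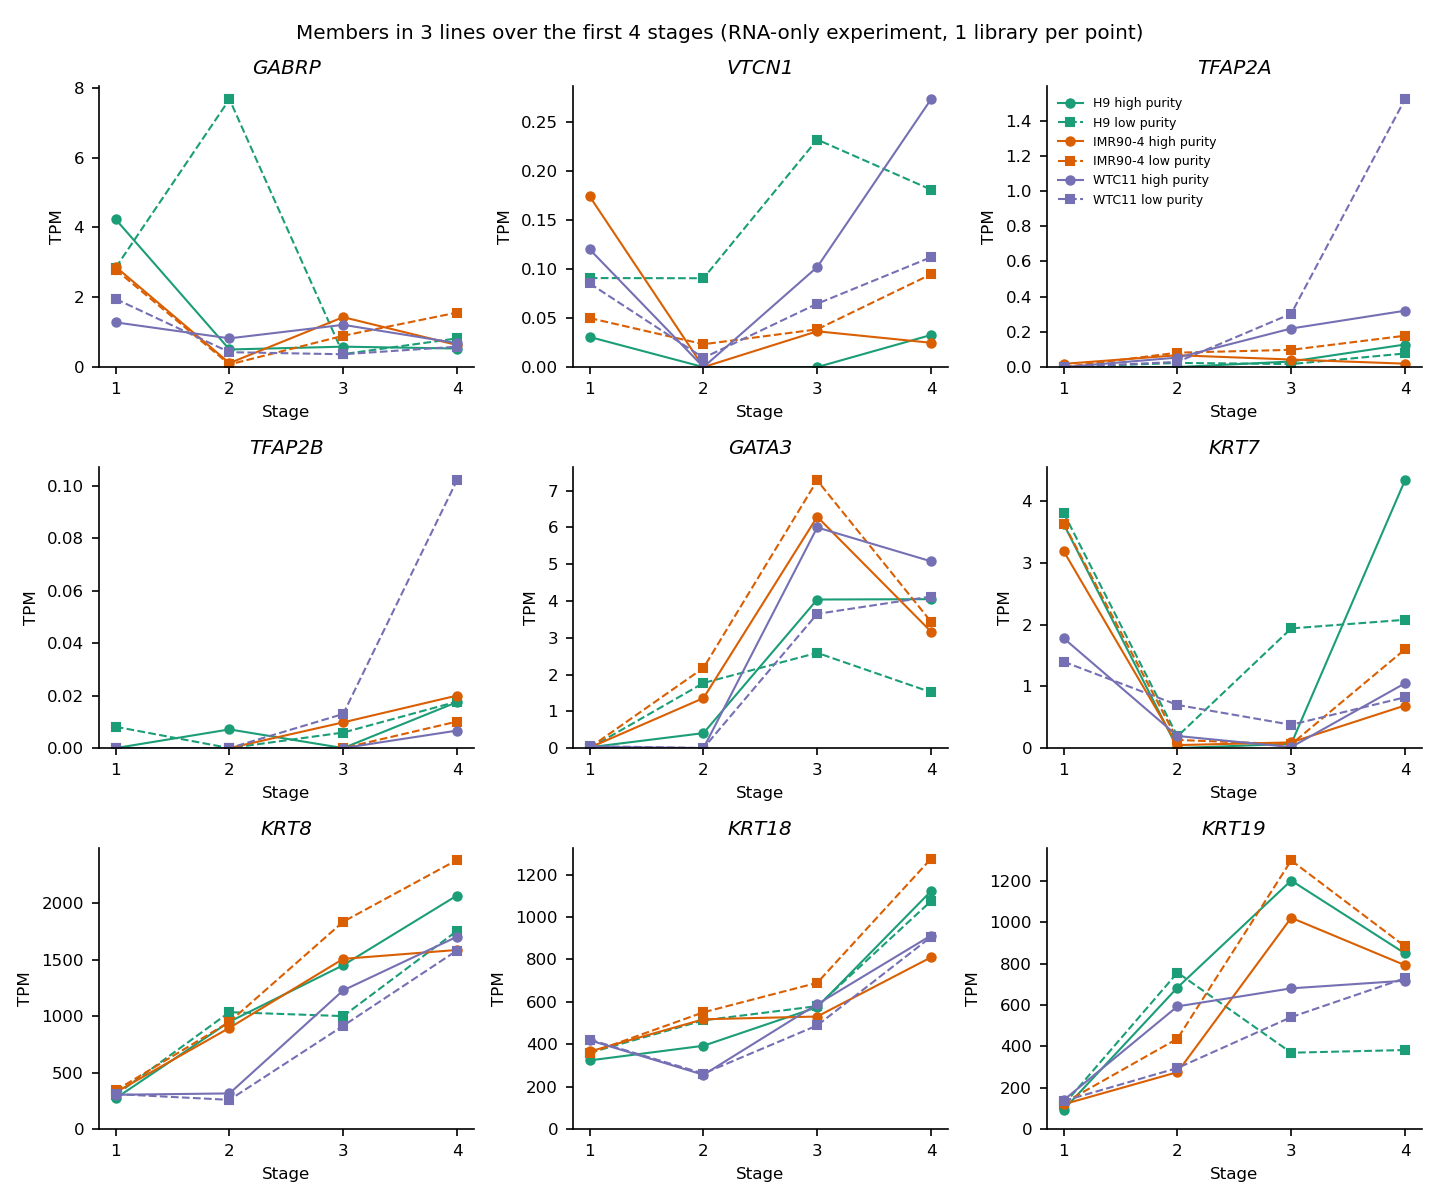
TPM of the 9 members at stages 1 to 4 in the RNA-only experiment, 1 library per point, with lines by colour and class by line style (solid with circles, high purity; dashed with squares, low purity). VTCN1, TFAP2A and TFAP2B stay under 2 TPM, GABRP has a single high value of 7.67 TPM in low purity H9 at stage 2, and KRT8 and KRT18 end higher than they began in all 6 differentiations.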

How the data were processed

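Poly(A) RNA of 56 WTC11 libraries and total RNA of 24 libraries of 3 lines had been sequenced. Per the submitters' processing notes, the authors used STAR 2.5.3a, featureCounts 2.0.3 and hg38. The deposited tables hold TPM and raw read counts per gene; counting strand and annotation are not given in the sources used here.

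The 56 column names of the multi-omic counts are not those of the TPM: 0 columns match the TPM column they are named for in reads, and 50 match one named for another well. The TPM names were used, since 54 of 55 TPM columns, against 28 count columns, were nearest to a column of their own group. Reads were recovered from TPM with gene lengths solved from the RNA-only tables, and came out whole (within 0.05) for 37194 of 37194 genes with a solved length. Of the RNA-only counts, 36 broken lines were left out, and 43382 genes remained.

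From these files, TPM was scaled by TMM and log2(TPM + 1) fitted with limma 3.58.1 on the genes that reached 1 TPM in 3 or more libraries (25664 genes, 40 residual degrees of freedom, all groups in 1 fit). RNA-only counts were fitted with edgeR 4.0.16 by its quasi-likelihood test with filterByExpr: 24810 genes between classes (8 degrees of freedom, 4 stages in 1 fit with line within stage as a block) and 23848 between stages (15). R 4.3.3, DESeq2 1.42.0, Python 3.11.15, numpy 2.4.6, pandas 2.3.3 and matplotlib 3.10.9 were used, and both fits were tested on simulated data. Wells of a multi-omic group come from a single differentiation, so their spread may be technical. Members and gene lists were chosen with earlier results of these data known. From each list the called genes with the largest day 16 change were named, at most 6 for the amnion, surface ectoderm, trophoblast and junction lists and 4 for the others; some genes under this rule are not reported here. Alternatives were the pseudocount, filter, scaling, count test, block, count table names and leaving out each well or line.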

Additional observations from a re-analysis of the deposited data

Results flagged for a closer look

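For each of the 9 members in each multi-omic group of 4 wells, the distance of the most extreme well from its neighbour was compared with the range of the group. This gave 93 pairs of a gene and a group with any spread. In 17 a well stood apart by Dixon's criterion, which chance gives in about 1 pair in 20. The pairs share wells and are not independent. In 12 of the 17 the well that stood apart held 1 to 3 reads and the other 3 wells held 0, so these rest on a few reads. They were VTCN1 on day 2 (high purity well 1, 0.0801 TPM), TFAP2A on day 0 (high purity well 3, 0.0548, and low purity well 4, 0.0669) and on day 8 (low purity well 1, 0.140), and GATA3 on day 0 (low purity well 3, 0.133) and day 2 (high purity well 4, 0.183). The others were TFAP2B in high purity well 4 of days 2 and 4 (0.0298 and 0.0364 TPM) and in low purity wells of day 4 (0.0505), day 6 (0.0610), day 8 (0.0365) and day 13 (0.0414).

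VTCN1 in high purity well 1 of day 6 was at 1.70 TPM (26 reads), against 0.264 to 0.487 in the other 3. The same well held the least GABRP of its group, 0.212 TPM. KRT7 in high purity well 3 of day 4 read 0.256 TPM from 3 reads, against 0.0679 to 0.0859, and in low purity well 3 of day 8 it read 0.947 against 1.51 to 1.58. KRT19 was at 187 TPM in high purity well 1 of day 0, against 203 to 204, and at 555 in low purity well 1 of day 13, against 615 to 621. The latter is the well nearest in expression to a day 16 well.

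The change of TFAP2A from day 8 to day 16 differed between the classes by 1.69 in limma's interaction test, with the dependence on scale given above.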

How the results depend on the processing

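Multi-omic counts in this section are over the 7 members fitted, TFAP2B included. TFAP2B passed the filter only through the group where it was high, so its call on day 13 is no test. Without TFAP2B the day 13 count of the main fit was 4 in place of 5. The day 13 range with single wells left out includes TFAP2B as well. Counts that moved by over 1.5 times follow. Under the count table's own column names, edgeR gave 2 members on day 0 in place of 0, 0 on day 4 in place of 2, 2 on day 6 in place of 1, and 0 on days 13 and 16 in place of 5 and 4. The same table gave 1 and 0 in place of 6 and 5 for day 4 against day 0 (high, low), 0 in place of 3 for day 8 against day 4 in the low purity class and 3 in place of 1 for day 16 against day 8 there. With a pseudocount of 0.1 the counts were 2 on day 6, 2 for day 16 against day 8 in the low purity class and 0 for the difference between classes. EdgeR on the recovered reads gave 2, 4 and 0 for these, reversed that difference for TFAP2A to -1.30 and called 643 genes in all on day 0 against 274. DESeq2 gave 1 at stage 3.

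Leaving out single wells gave 1 to 2 members on day 4, 2 to 4 on day 8, 3 to 6 on day 13 and 0 to 1 for day 16 against day 8 in the low purity class; GATA3, the 1 there, was lost without low purity well 4 of day 8, and without well 1 of day 16 KRT7 (1.08) was called in its place. Leaving out a line gave 5 to 5 for stage 4 against stage 1, in place of 6. Between the classes, wells that shared a number and a day showed no pairing (24 pairs, correlations of -0.016 to 0.033). This check compared separate differentiations, so it cannot show whether a well number paired samples across the days of a class. A replicate block called KRT19 on day 8 (1.00), which made that count 4 in place of 3, and moved no other count. Without the scaling between libraries the median of all genes shifted to -0.18 on day 8, -0.13 on day 13 and -0.12 on day 16, and KRT8 was called on day 13 at -1.16. Depth limits TFAP2B, and TFAP2A before day 4.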
